A study of Homo sapiens with 6 samples.

Results

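The transcription factors that set apart antibody-secreting plasma cells and B cells were examined in JJN3 cells, an established line from human myeloma. The set holds 10 genes: PRDM1, XBP1 and IRF4 as plasma cell factors, POU2AF1 and POU2F2 as octamer factors, and PAX5, BCL6, BACH2, EBF1 and TCF3 as B cell factors. Members were all probe sets whose platform annotation names exactly 1 gene, that gene being one of the 10 by Entrez identifier. This gave 42 of 54675 probe sets on the array, with 8 for the plasma cell factors, 9 for the octamer factors and 25 for the B cell factors. The study has 6 Affymetrix U133 Plus 2.0 arrays of total RNA, 3 of cells with a short hairpin RNA (shRNA) that targets CKS1B, a partner of cyclin-dependent kinases, and 3 of cells with a non-specific scrambled shRNA. Transduction was viral in both groups, so every group is the same cancer cell line carrying a hairpin construct, and untransduced JJN3 and normal B or plasma cells were not analysed here. The titles letter the arrays of a group from A to C, and values below follow that order. The title of scrambled array B carries the added word "poly", which the labels do not explain. It is not known whether that array was treated differently from the other scrambled arrays. Whether the arrays of a group were separate cultures is not labelled, so p-values cover the spread of these arrays alone, which may be technical.

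In B cells PAX5, EBF1 and TCF3 switch on the genes of the B cell programme, and BCL6 and BACH2 hold back plasma cell differentiation in the germinal centre and in activated B cells. Plasma cell differentiation turns this round: PRDM1 (Blimp-1) represses PAX5, BCL6 and other B cell genes, IRF4 activates PRDM1 and is needed for myeloma cells to survive, and XBP1 expands the secretory pathway after its mRNA is spliced during the unfolded protein response. POU2AF1 (OCA-B) is the coactivator that POU2F2 (Oct-2) and its relative POU2F1 recruit to the octamer motif of immunoglobulin promoters.

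Promoter sequences are shown for XBP1 and IRF4, which were bright on all arrays, and for EBF1, which was dim, with a motif marked in each. Each is the 250 bases before a RefSeq transcription start in GRCh38.p14, written 5′ to 3′ on the strand of the gene, with the motif in capitals. XBP1 lies at chr22:28800570-28800819 on the minus strand, IRF4 at chr6:391502-391751 on the plus strand and EBF1 at chr5:159097957-159098206 on the minus strand.
XBP1: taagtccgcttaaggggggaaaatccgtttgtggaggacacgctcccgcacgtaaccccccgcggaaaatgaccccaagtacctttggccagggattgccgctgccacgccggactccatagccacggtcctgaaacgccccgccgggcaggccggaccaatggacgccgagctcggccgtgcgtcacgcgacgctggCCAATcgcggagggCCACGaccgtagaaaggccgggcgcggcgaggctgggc
IRF4: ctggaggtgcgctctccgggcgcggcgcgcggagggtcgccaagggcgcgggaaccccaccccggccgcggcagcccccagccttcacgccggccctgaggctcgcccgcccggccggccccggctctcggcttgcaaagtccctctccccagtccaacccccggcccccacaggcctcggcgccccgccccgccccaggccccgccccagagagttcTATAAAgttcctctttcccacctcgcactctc
EBF1: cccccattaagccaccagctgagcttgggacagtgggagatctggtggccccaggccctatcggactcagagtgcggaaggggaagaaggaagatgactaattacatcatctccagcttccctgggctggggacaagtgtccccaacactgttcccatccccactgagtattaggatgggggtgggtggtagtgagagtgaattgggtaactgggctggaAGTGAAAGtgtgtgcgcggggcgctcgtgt
In XBP1 the capitals mark the ER stress element, CCAAT and CCACG with 9 bases between them, the site that ATF6 uses in the unfolded protein response. Both strands were searched, and 26 of 35116 promoter windows of the same length (0.074%) hold it. In IRF4 the capitals mark TATAAA, the core of a TATA box, which 10.7% of windows hold. In EBF1 they mark AGTGAAAG, the letters of the PRDI site of the interferon beta promoter after which PRDM1 was first named PRDI-BF1. It is held by 380 windows (1.08%) and contains the GAAA core shared with sites of IRF proteins. Among the windows of the members EBF1 alone holds it, and those of PAX5 and BCL6 do not. The EBF1 window lies within the annotated span of the gene, which runs to 159099916. The motifs were chosen with these promoters in view. A match describes letters and shows no binding, and windows were matched for 9 of the 10 genes, POU2AF1 being the exception.

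Values are MAS5 intensities on a linear scale with the same 2% trimmed mean of 500 on each array. CKS1B shRNA array B, called array B below, stood apart. Its median was 334, against 117.5 to 201.8 on the other 5, its 3' to 5' ratio of the actin control probe sets was 12.4 (1.05 to 2.93 elsewhere), and its correlation with the others was 0.577 to 0.610 over all probe sets (0.879 to 0.958 among the other 5). Differences are therefore also given for the 5 arrays without it. CKS1B, the target, read 481, 269 and 828 on CKS1B shRNA arrays, against 8266, 8441 and 7294 on scrambled arrays. The log2 difference was -4.02 (limma adjusted p = 0.122), and -3.63 without array B (adjusted p = 3.15e-05).

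Across all arrays the plasma cell factors read bright, and the B cell factors differed widely among themselves. The brightest probe sets of PRDM1, XBP1 and IRF4 lay at percentiles 94.4 to 99.1 of their arrays, counting all 6. Those of the 5 B cell factors lay at percentiles 24.7 to 97.6. Ranks between genes are a rough description, since probe sets differ in affinity for their targets. As a background, the 95th percentile of 29 genes restricted to other organs, taken at their brightest probe set, was computed per array. It was 191, 750 and 355 on CKS1B shRNA arrays, against 230, 292 and 641 on scrambled arrays. Above that level on all 6 arrays were 4 of 8 plasma cell, 1 of 9 octamer and 4 of 25 B cell probe sets, the last 4 all of TCF3. Without CKS1B shRNA array B, 1, 5 and 11 probe sets of these classes were above it on none of the other 5 arrays.

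**Figure D1:**
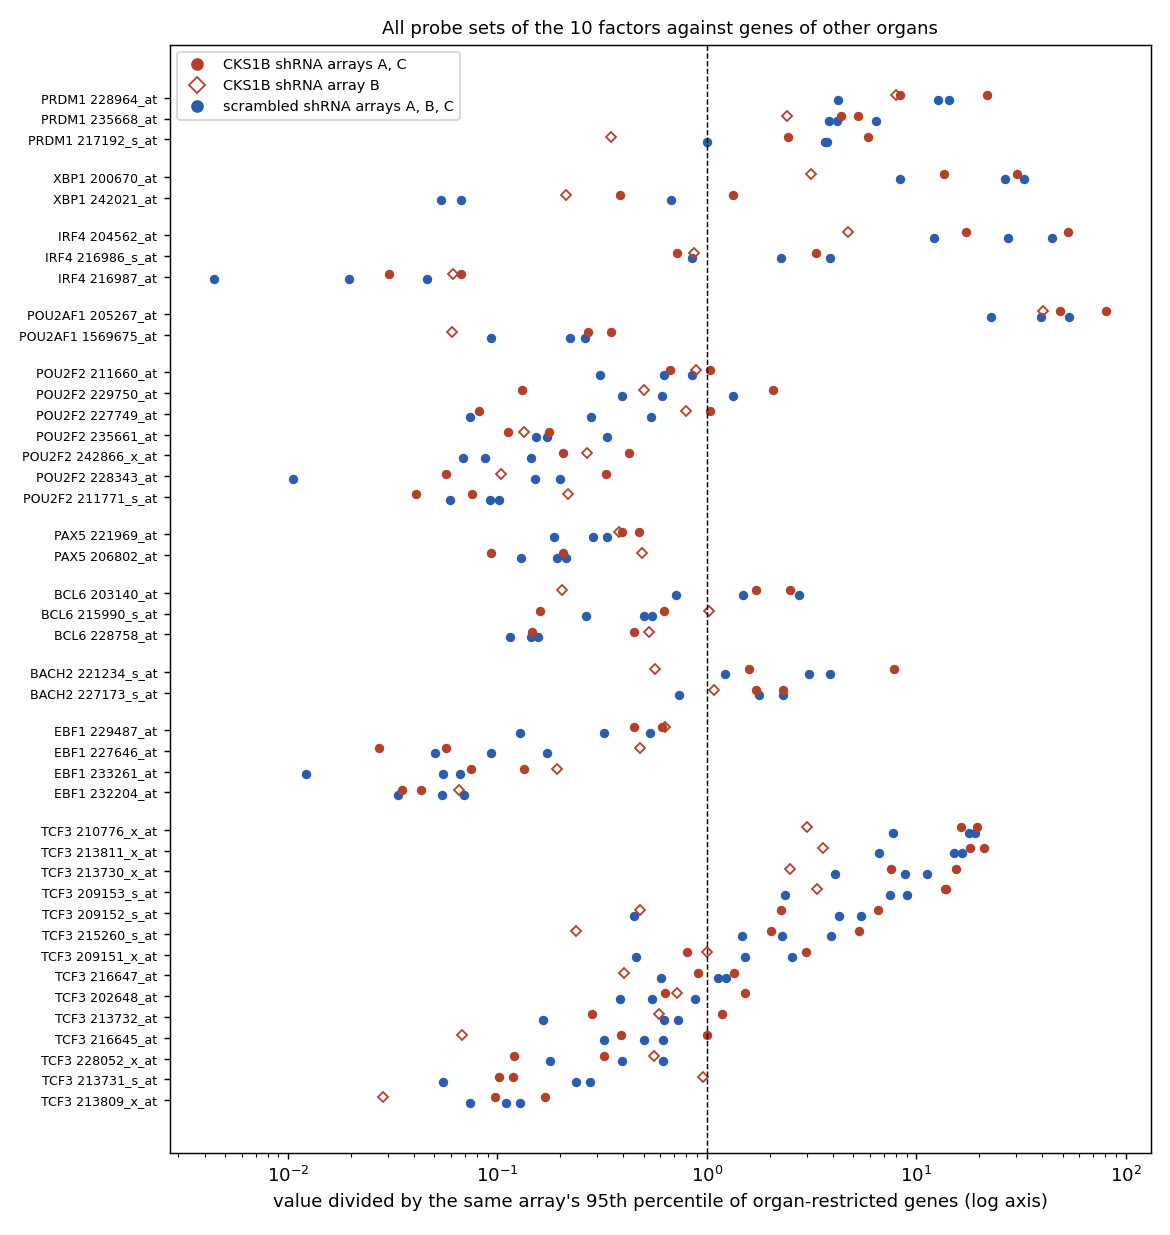
Values of all 42 member probe sets, each divided by the 95th percentile of 29 organ-restricted genes on the same array, on a log axis. CKS1B shRNA arrays and scrambled arrays are in separate colours, and a dashed line marks that level. The brightest probe sets of PRDM1, XBP1, IRF4 and POU2AF1 lie above the line on all 6 arrays, and all probe sets of PAX5 and EBF1 lie below it on all 6.

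PRDM1, the repressor that ends the B cell programme, was above the organ-restricted level on all 6 arrays with 2 of its 3 probe sets. Its brightest probe set read 4158, 6031 and 2962 on CKS1B shRNA arrays, against 3293, 3693 and 2724 on scrambled arrays. The groups overlapped, with array B the highest of the 6. The log2 difference was 0.39 (SE 0.44, 95% interval -0.59 to 1.37), and 0.13 without array B. Its next brightest probe set had a difference of -0.21, and -0.39 without array B. Its dimmest had -0.39, and 0.23 without array B.

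XBP1 was represented by probe sets of very different brightness. The bright one read 5780, 2361 and 4814 on CKS1B shRNA arrays, against 7508, 7779 and 5375 on scrambled arrays. Array B was the lowest and the groups overlapped at a single point, scrambled array C lying below CKS1B shRNA array A. The log2 difference was -0.75 (SE 0.52, interval -1.89 to 0.39), and -0.36 (interval -0.91 to 0.18) without array B. The dim one read 254, 159.5 and 137 in CKS1B shRNA cells, against 156, 19.5 and 34.5 in scrambled cells. Its difference ran the other way at 1.52 (interval -0.27 to 3.31), 1.59 without array B, and it was above the organ-restricted level on 1 of 6 arrays. The unconventional splicing of XBP1 mRNA was not measured here.

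IRF4, on which myeloma cells depend, was bright with its leading probe set, at percentiles 97.5 to 99.0. It read 10112, 3529 and 6115 on CKS1B shRNA arrays, against 10257, 7988 and 7783 on scrambled arrays. The groups overlapped, and array B was the lowest of the 6. The groups differed by -0.51 in log2 (SE 0.58, interval -1.79 to 0.76), and -0.13 (interval -0.72 to 0.46) without array B. Of its other probe sets, the brighter read 257 to 893 and the dimmer 1.3 to 46.2 over the 6 arrays, the dimmer lying below the organ-restricted level on each.

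**Figure D2:**
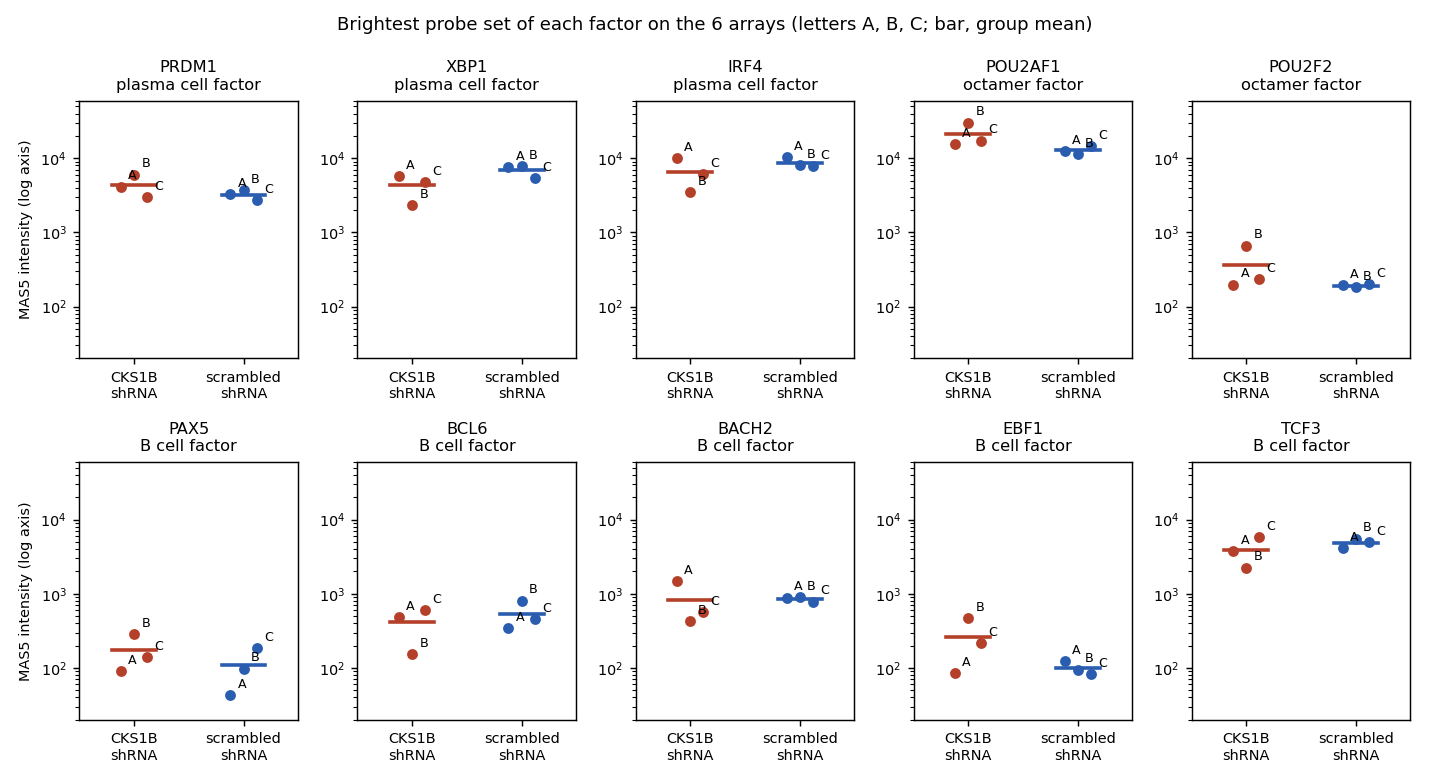
Value of the brightest probe set of each factor on each array, on a log axis, with CKS1B shRNA arrays to the left of scrambled arrays. POU2AF1 is the single gene of the 10 whose groups do not overlap here, reading 15392 to 30311 on CKS1B shRNA arrays and 11471 to 14602 on scrambled arrays. Over all probe sets, 4.17% did not overlap with the CKS1B shRNA higher and 3.6% with it lower.

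POU2AF1, the octamer coactivator, lay at percentiles 99.2 to 99.8 with its brighter probe set. It read 15392, 30311 and 17267 on CKS1B shRNA arrays, against 12371, 11471 and 14602 on scrambled arrays. All 3 CKS1B shRNA arrays were above all scrambled arrays, with array B far above the rest, as was so for 4.17% of all probe sets in group order alone. Such groups always give p = 0.1 in an exact two-sided permutation test, its lowest possible value for 3 against 3. The log2 difference was 0.65 (SE 0.75, interval -1.0 to 2.30), and 0.35 (interval -0.19 to 0.90) without array B. With quantile normalization alone it was 0.30, and with quantile normalization and no array B together it was -0.07. Its other probe set read 21.5 to 143 and was above the organ-restricted level on no array.

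POU2F2, the octamer-binding partner, was dim on all of its 7 probe sets. The brightest read 198, 663 and 236 on CKS1B shRNA arrays, against 195.5, 182 and 198.5 on scrambled arrays. The groups overlapped, and array B was the sole array far from the others. On the log2 scale the difference was 0.68 (interval -0.56 to 1.91), and 0.16 without array B. None of the 7 was above the organ-restricted level on all 6 arrays, and 4 were above it on none.

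PAX5 and EBF1, the factors that commit and keep a cell in the B lineage, did not exceed the organ-restricted level on any array with any of their 6 probe sets. The brightest of PAX5 read 90.5, 287 and 139 on CKS1B shRNA arrays, against 42.9, 98 and 183.5 on scrambled arrays. The brightest of EBF1 read 85.6, 475 and 216.5 on CKS1B shRNA arrays, against 123, 94.8 and 81.8 on scrambled arrays. Both genes read highest on array B, where the organ-restricted genes also read highest, and the groups overlapped. The log2 differences were 0.63 for PAX5 and 0.98 for EBF1, and 0.22 and 0.42 without array B. A value at this level does not show that a transcript is absent, and detection calls were not used here.

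BCL6, the germinal centre repressor, was intermediate. Its brightest probe set read 479, 152 and 609 on CKS1B shRNA arrays, against 342.5, 808 and 455 on scrambled arrays. The groups overlapped, with array B the lowest, and the values were above the organ-restricted level on 4 of the 6 arrays. Its log2 difference was -0.47 (interval -1.71 to 0.76), but 0.10 without array B, so its sign rests on that array. Of its other probe sets, the brighter was above the level on 1 array and the dimmer on none.

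BACH2, the repressor that delays plasma cell differentiation, was above the organ-restricted level on 5 of 6 arrays with each of its probe sets. Both carry a suffix that marks sequence shared with other transcripts. The brighter read 1493, 424 and 566 on CKS1B shRNA arrays, against 888, 901 and 783 on scrambled arrays. The other read 440, 809 and 611 on CKS1B shRNA arrays, against 531, 519 and 471 on scrambled arrays. The groups overlapped with both, and array B was the lowest with the brighter and the highest with the other. The log2 differences were -0.26 and 0.24, and 0.10 and 0.03 without array B.

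TCF3, which encodes the E proteins E12 and E47, had 14 probe sets that disagreed widely in level. The brightest read 3739, 2259 and 5794 on CKS1B shRNA arrays, against 4096, 5565 and 4990 on scrambled arrays. The groups overlapped, and the log2 difference was -0.40 (interval -1.47 to 0.67), or -0.06 without array B. The 4 probe sets above the organ-restricted level on all 6 arrays all carry a suffix that marks sequence shared with other transcripts. The 3 above that level on no array carry one too, since 6 of the 14 have the suffix x and 4 have s. The 4 without such a suffix were above the level on at most 3 arrays, so the level of TCF3 differed with the probe set read.

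The dimmest of these 4 bright TCF3 probe sets had groups that did not overlap. It read 2628, 2523 and 4924 on CKS1B shRNA arrays, against 2077, 2179 and 1510 on scrambled arrays. All 3 CKS1B shRNA arrays were the higher ones, as for 4.17% of all probe sets. This order alone fixes p at 0.1, the lowest, in the same exact permutation test. The log2 difference was 0.75 (SE 0.42, interval -0.18 to 1.67), and 0.92 (interval 0.29 to 1.55) without array B, with a limma adjusted p = 0.790. The other 3 bright TCF3 probe sets had differences of -0.40, -0.01 and -0.08, and -0.06, 0.29 and 0.12 without array B.

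No member probe set passed an adjusted p of 0.05 in limma with 6 arrays. The count was 0 of 42, where 0% of all 54613 probe sets passed, and the adjusted p was 1.0 for each. At an unadjusted p under 0.05 there were 0 members, against 965 of all probe sets (1.77%). Groups that did not overlap were found with the CKS1B shRNA higher for 2 members (4.76%), the brighter probe set of POU2AF1 and the TCF3 probe set just described, where the share over all probe sets was 4.17%. For 0 members they did not overlap with the CKS1B shRNA lower, where 3.6% of all did. Over the 42 probe sets 24 read higher and 18 lower, with a median log2 difference of 0.23, beside 0.12 over all probe sets.

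Without CKS1B shRNA array B the limma count was again 0 of 42, where 11 probe sets (0.0201%) of all passed, and 1 member, the same TCF3 probe set, was under an unadjusted p of 0.05, as were 3091 of all probe sets (5.66%). With the CKS1B shRNA higher, 3 members (7.14%) did not overlap, where 7.99% of all did, and with it lower, 3 members (7.14%) did not, where 13.7% of all did. The higher ones were the brighter probe set of POU2AF1 and a pair of bright TCF3 probe sets, and the lower ones were a dim probe set each of POU2F2, EBF1 and TCF3. The median log2 difference over the members was 0.04, beside -0.15 over all probe sets. These shares lie near or below those of the whole array.

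**Figure D3:**
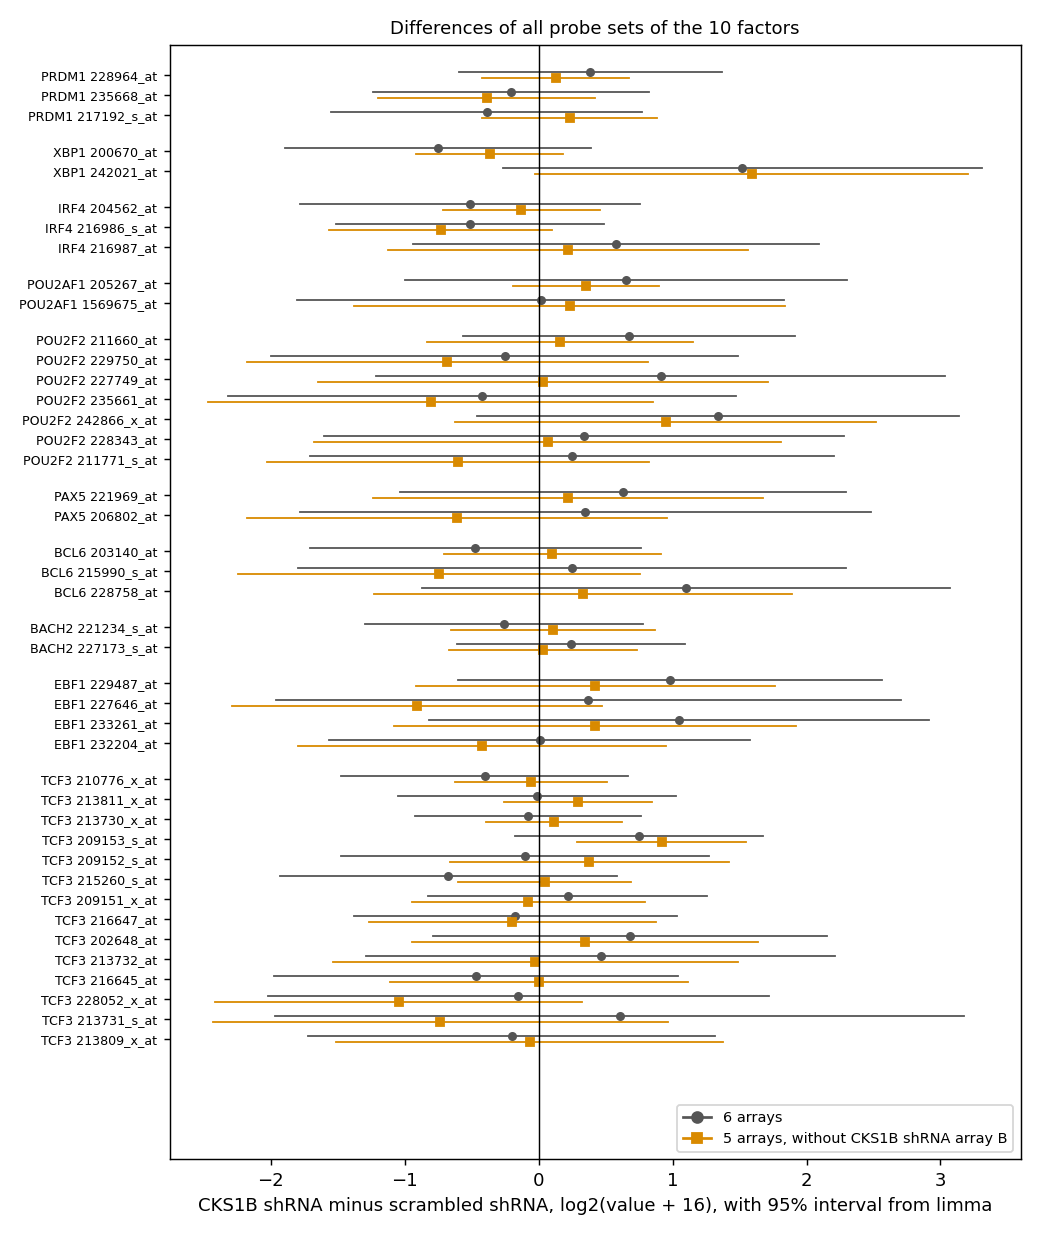
Log2(value + 16) of the CKS1B shRNA minus that of the scrambled shRNA for all 42 member probe sets, with 95% intervals from limma for 6 arrays (circles) and for 5 arrays without CKS1B shRNA array B (squares). All intervals of the 6-array fit span 0, and leaving array B out narrows the intervals of bright probe sets such as the brighter one of POU2AF1, whose interval is -1.0 to 2.30 with it and -0.19 to 0.90 without it.

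Genes around these factors were taken from 9 lists with 90 distinct genes. They were read at the brightest probe set of each gene, and 0 genes passed limma with 6 arrays or without array B (2 and 9 at an unadjusted p under 0.05). Of all probe sets, 1.77% and 5.66% were under that unadjusted limma p in these fits. For scale, 10402 of all 19777 named genes read higher, with a median log2 difference of 0.04, and 8121 without array B, with a median of -0.11. Per list, values are the range over the 6 arrays, and the genes named are the 4 with the highest mean level. The exceptions are ERN1, ATF6, MYBL1, S1PR2, CD40, RAG2, BLK, CR2, SDC1, DERL3, CD38 and SLAMF7, which were chosen after their values were seen.

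Plasma cell genes included JCHAIN (13131 to 37717), which joins IgA and IgM, SSR4 (4007 to 13492), a subunit of the translocon-associated complex, SEC11C (4695 to 8483), a signal peptidase, and ELL2 (1387 to 8487), which favours secretory immunoglobulin mRNA. Of the 15 of 16 named on the array, 4 read higher and 11 lower, with a median log2 difference of -0.34. Without array B these were 8 and 7, with a median of 0.06. The low ends of SSR4, SEC11C and ELL2 were all on array B.

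Genes of the XBP1 axis, which fold and move secreted proteins, included PDIA6 (6395 to 17725), SSR1 (1271 to 27339), HSPA5 (2502 to 14128) and SEC61B (1449 to 13361). Of 17 of 18 named genes, 8 read higher and 9 lower, with a median of -0.40. Without array B the counts were 12 and 5, with a median of 0.185, so the sign of the median rests on that array. The sensor ERN1, which splices XBP1 mRNA, read 205 to 550, and ATF6, another sensor, read 360 to 3631.

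A list of B cell genes, drawn up around PAX5, EBF1, TCF3 and their kin, was split by level. Whether these factors control each gene was not tested. HLA-DRA (1531 to 13851) and CD74 (2398 to 13157), of antigen presentation, MS4A1 (4578 to 7996), which encodes CD20, and LEF1 (287 to 2650) were bright on most arrays. MYBL1 (945.5 to 2030), a MYB family factor, was above the organ-restricted level on all 6 arrays. The lymphocyte receptor gene S1PR2 read 455 to 737 and CD40, a costimulatory receptor, read 387 to 764. At the low end of the list were the recombinase gene RAG2 (5.5 to 379.5), BLK (18.6 to 91.9), a B cell kinase, and CR2 (14 to 253), the complement receptor CD21. Of 24 of 26 named genes, 12 read higher and 12 lower, with a median of 0.06, and 12 and 12 without array B, with a median of 0.02.

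Of the list of genes that PRDM1 is known to repress, which holds the members PAX5 and BCL6, MYC was bright at 10254 to 13003 on 5 arrays but read 124 on CKS1B shRNA array B. CIITA, the master activator of MHC class II genes, read 129 to 678, and SPIB, a B cell ETS factor, read 226.5 to 429. Of 6 of 7 named genes, 3 read higher and 3 lower, in both fits.

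Partners in these circuits were also read. Among E proteins and the ID proteins that block them, all 6 named, TCF4 (1767 to 8377), ID2 (509 to 8115), TCF12 (1961 to 2986) and ID1 (160 to 1427) were the brightest, and 3 read higher and 3 lower (4 and 2 without array B). Among IRF4 partners and relatives, 11 of 12 named, NFKB1 (2092 to 3192), MEF2C (1580 to 3269), IKZF3 (734 to 2601) and IRF2 (1181 to 1878) were the brightest, and 6 read higher and 5 lower (5 and 6). Among PRDM1 corepressors, all 8 named, HDAC1, PRMT5, KDM1A and HDAC2 were the brightest, and 4 read higher and 4 lower (6 and 2). Among corepressors and MAF partners of BCL6 and BACH2, 5 of 8 named, MAFF, HDAC3, MAFG and BCOR were the brightest, and 3 read higher and 2 lower (2 and 3). Among octamer cofactors and POU relatives, 3 of 4 named, HMGB1, HMGB2 and POU2F3 all read higher in both fits.

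Markers of cell types bear on what the arrays held. The 8 plasma cell markers summed to 24756 to 53436 on CKS1B shRNA arrays and 30671 to 31627 on scrambled arrays. JCHAIN was the largest term of the sum on all 6 arrays, with 17620, 19880 and 37717 on CKS1B shRNA arrays, against 15690, 13131 and 16370 on scrambled arrays. TNFRSF17, FKBP11, MZB1 and DERL3 each read lowest on array B. SDC1, which encodes CD138 (552 to 1684), CD38 (140 to 805.5) and SLAMF7 (24.8 to 160) each read highest there. The 7 mature B cell markers that were named summed to 5926 to 9202 on CKS1B shRNA arrays and 6417 to 9040 on scrambled arrays, mostly MS4A1. The 8 T cell markers summed to 993 to 7084 and 1173 to 2282 on the same groups, the 7 myeloid ones to 513 to 2348 and 529 to 1123, and the 8 stromal ones to 872 to 3199 and 1270 to 2038. The upper ends of the last 3 on the CKS1B shRNA side were all on array B, and no marker was listed at 0. The part of these markers in the differences above was not tested.

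The genes whose log2 values ran closest to the brightest probe sets were named over the 6 arrays among 12662 bright probe sets, as a description. For PRDM1 they were NAGPA, CAMK2G and IKBKB (Pearson r of 0.997 to 0.993), for XBP1 VAMP7, CDCA2 and TDP1 (0.997 to 0.996), and for IRF4 TRIM32, HPCAL1 and COX20 (0.996 to 0.994). Without CKS1B shRNA array B, r for these genes was 0.977 to 0.997 over 5 arrays. Those 5 are among the 6 arrays used to pick the genes, so this is no separate check. Picking the highest r of 12662 over so few arrays gives high values in any case.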

How the data were processed

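The deposited intensity values, 1 per probe set and array, come from MAS5, per the submitters' processing notes; its version is not given in the sources used here. Of 54675 probe sets, 62 controls were left out. Among the 54613 kept, 41091 had 1 gene symbol, 1801 had several and 11721 had none here. No member was on a probe set with several genes. Entrez identifiers of 41043 probe sets matched current RefSeq symbols.

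Values were turned into log2(value + 16), with no filter, and groups were compared over all 54613 with limma 3.58.1 in R 4.3.3 (lmFit, eBayes with trend) and Benjamini-Hochberg adjustment at 0.05. Each difference subtracts the scrambled mean from the CKS1B shRNA mean on that scale, which understates changes of dim genes. Member probe sets also had an exact permutation test of 3 against 3, in which groups that do not overlap always give the lowest p. The number of arrays limits the precision. The members and gene lists were chosen with earlier results of these data known. All members were named, list genes by level, and 3 genes of like pattern for each plasma cell factor. The fit was tested on simulated data with large added changes and less spread than these arrays have. That test does not show how well the fit finds changes here. Figures used Python 3.11.15 and matplotlib 3.10.9, and promoters came from RefSeq tables of GRCh38.p14. Alternatives are given in the closing section.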

Additional observations from a re-analysis of the deposited data

How the results depend on the processing

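The brightest probe set of each factor was refitted under up to 20 alternatives (18 for PAX5 and EBF1, which have no value under the filter on dim probe sets and with 1 probe set a gene). PRDM1, XBP1, IRF4, POU2F2, PAX5 and EBF1 kept their sign in all, with ranges of 0.003 to 0.64 for PRDM1, -1.05 to -0.27 for XBP1, -0.89 to -0.13 for IRF4, 0.12 to 1.005 for POU2F2, 0.18 to 1.13 for PAX5 and 0.40 to 1.70 for EBF1. PRDM1 was near 0 with array weights (0.003) and with quantile normalization and no CKS1B shRNA array B (0.02). POU2AF1 turned to -0.066 with quantile normalization and no CKS1B shRNA array B. BCL6 turned to 0.24 there, 0.44 with the replicate block and no arrays of letter B, 0.44 without letter B, 0.021 with array weights, and ranged from -0.84 to 0.10 when leaving out 1 array in turn. BACH2 turned to 0.14 in the first 3 of those settings and ranged from -0.78 to 0.10. TCF3 turned to 0.042 with the replicate block and no arrays of letter B, and to 0.042 without letter B. Over all probe sets 0 passed, against 2 with quantile normalization and no array B, 382 with the replicate block and no letter B, 86 with array weights, 16 without letter B and 0 to 11 when leaving out 1 array. Of the members, 1 passed in any alternative, the TCF3 probe set whose groups do not overlap, at 1.02 (limma adjusted p = 0.0259) with the replicate block and no letter B. Same-lettered arrays deviated together for A alone (correlations of 0.35, -0.16 and -0.15 for A, B and C). The highest correlation across letters was 0.33, for CKS1B shRNA array B with scrambled array C. Pairing cannot be decided this way, since deviations from a mean of 3 arrays depend on each other. The main fit did not take the letters as pairs, which no label states. The titles number the arrays of a letter consecutively, and whether they shared handling was not tested. The replicate block on all 6 arrays gave 0 calls (1161 at an unadjusted p under 0.05). The filter on dim probe sets left 23 of 42 members. With 3 arrays a group, bright factors had SEs of about 0.44 to 0.75.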

Other observations

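The genes and probe sets here were chosen after their values were seen, and none passed limma with 6 arrays. CIITA, the activator of MHC class II genes, differed between its probe sets. With the dimmer of its leading probe sets it read 153, 135 and 184 on CKS1B shRNA arrays, against 264.5, 328.5 and 311 on scrambled arrays, and the groups did not overlap. The log2 difference was -0.88, and -0.78 without array B. With the brightest the difference was 0.88, and 0.55 without array B. Its dimmest probe set, which read 6.9 to 301 over the 6 arrays, had -0.70, and -1.92 without array B. The MHC class II gene HLA-DRA had differences of -0.92 and -0.03 without array B, and its low value of 1531 was on array B.

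MS4A1 was bright with 4 probe sets, from 737 to 7996, while all probe sets of PAX5 and EBF1 stayed under the organ-restricted level. IRF8, the IRF family member that acts against IRF4 in B cells, read 127, 2364 and 50.9 on CKS1B shRNA arrays, against 245, 295 and 572 on scrambled arrays, a log2 difference of -0.36 that was -1.89 without array B. Of the 15 plasma cell genes, 3 had groups that did not overlap on 6 arrays, in opposite directions. Over all probe sets, 4.17% did not overlap with the CKS1B shRNA higher and 3.6% with it lower. JCHAIN read higher, with a log2 difference of 0.66, and 0.78 without array B. MZB1, a chaperone of antibody assembly, read 1178, 442.5 and 2080 on CKS1B shRNA arrays, against 2655, 3429 and 2403 on scrambled arrays, a difference of -1.43, and -0.83 without array B. CCR10, a homing receptor, read 212, 341 and 289 on CKS1B shRNA arrays, against 718.5, 436 and 391 on scrambled arrays, a difference of -0.82, and -0.96 without array B.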
